A study of Mus musculus with 18 samples.

Results

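The response of CT26 tumours to OK-432 was measured as the 3 libraries labelled CT26_OK432 against the 3 labelled CT26_Ctrl, 6 of the 18 libraries of a bulk RNA sequencing study in mice. All 6 were included by their labels, and no measured value was used to choose them. CT26 is a carcinogen-induced colon carcinoma line of BALB/c origin. The tumours were subcutaneous, in hosts that the labels give for the whole series as BALB/cJ or C57BL/6J, and all were collected on day 14. The OK432 tumours had received OK-432 into the tumour for 24 hours and the Ctrl tumours had not; the labels name no injection for the Ctrl tumours and give neither age nor sex of the mice. The other 12 libraries are 3 with and 3 without OK-432 from tumours of CT26-NY-ESO-1 (written CT26NYESO1), a CT26 derivative named for a human tumour antigen, and the same from LL/2 (LL2), a Lewis lung carcinoma line of C57BL/6 origin. Whether each library is a mouse of its own is not stated, so a p-value here sets a difference against library-to-library spread, some of which may be technical. CT26 is also 1 cell line, so nothing here measures how colon tumours vary.

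OK-432 is a lyophilised, penicillin-treated preparation of Streptococcus pyogenes. Bacterial cell wall and nucleic acids are sensed by Toll-like receptors on macrophages and dendritic cells, which signal through NF-kappaB to chemokines such as Cxcl2 and cytokines such as Il1b, and these draw in neutrophils, whose cytoplasm is rich in the calcium-binding proteins S100a8 and S100a9. Bacterial products can also start an interferon response, in which type I interferon raises a large set of antiviral genes and interferon gamma raises antigen presentation genes. In a piece of whole tumour, fewer cells of a type and less RNA per cell of that type cannot be told apart.

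Levels are in TPM, the share of each library's transcripts scaled to a total of 1000000, and differences are OK432 minus Ctrl on log2(TPM + 1), a scale that understates changes of low genes. A gene was tested if it had at least 1 TPM in at least 3 of the 6 libraries, which held for 15065 of 55291 genes in the table, and called if its Benjamini-Hochberg adjusted p from limma was under 0.05. TPM keeps no depth, so the read number behind each value is unknown. The libraries were alike as wholes: the median Pearson r across genes was 0.991 within a group and 0.991 between the groups, where genes are not independent replicates. Genes listed above 0 numbered 25690, 25513 and 25080 in the OK432 libraries and 24036, 24196 and 24038 in the Ctrl libraries, 2 ranges that do not overlap. The part of this difference in the results was not tested. Mitochondrially encoded transcripts took 4.65%, 4.21% and 4.59% of TPM in OK432 libraries and 4.16%, 4.47% and 4.29% in Ctrl libraries. Of 15 epithelial and colon carcinoma genes, 10 stayed under 1 TPM in all 6 libraries, among them the defining epithelial genes Epcam, Krt8, Krt18 and Cdx2, so epithelial transcripts do not mark these tumours as a colon carcinoma.

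Most of the transcriptome differed little between OK432 and Ctrl tumours, and 4 genes were called. The calls were 3 higher genes and 1 lower gene, or 0.0199% and 0.00664% of the genes tested. At an unadjusted p under 0.05 there were 776 genes, 331 higher (2.2%, median log2 difference 0.28) and 445 lower (2.95%, median −0.31). Groups that did not overlap numbered 715 with OK432 higher (4.75%) and 786 with OK432 lower (5.22%). The median log2 difference over all genes was −0.0001 and the median size of a difference was 0.063, below the median standard error of 0.0886. The 95% interval of the difference lay within 2-fold in both directions for 14684 genes (97.5%) and within 1.5-fold for 13146 (87.3%). Differences of at least 2-fold were found for 37 genes, 25 higher and 12 lower, of which 19 and 7 had groups that did not overlap. These fold limits are on log2(TPM + 1), so a low gene can differ by more in TPM and not be counted. Cxcr2, for example, had means of 3.41 TPM in OK432 and 1.23 TPM in Ctrl libraries, but a log2 difference of 0.87. In a fit of all 18 libraries, which shares 1 estimate of the spread with the other tumours, none of the 4 genes was called: the adjusted p was 0.377 for Cstdc4, 0.394 for Mir31, 0.551 for S100a9 and 0.872 for Dleu2.

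Large differences were a matter of low and middling transcripts. Of the 37 genes, 15 had a mean under 5 TPM, 21 a mean of 5 to 50 TPM and 1 a mean over 50 TPM, the ribosomal protein pseudogene Rps18-ps6. Rps18-ps6 was listed at 0, 460 and 398 TPM in OK432 libraries and at 411, 339 and 441 TPM in Ctrl libraries, so a single value set its log2 difference of −2.80 (adjusted p = 0.999). The predicted gene Gm49890 had the largest positive log2 difference, 3.30 (adjusted p = 0.999), with 28.2, 31.8 and 34.7 TPM in OK432 libraries and 0, 34.4 and 0 TPM in Ctrl libraries. In both genes the groups overlapped, and both were singled out after their values were seen. Their values were either 0 or close to 1 level, and whether a 0 is a lack of transcript or reads assigned elsewhere was not tested. The standard error also fell with level: its median was 0.171 for the 3493 genes under 5 TPM, 0.0864 for the 7472 genes at 5 to 50 TPM and 0.0628 for the 4100 genes over 50 TPM.

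**Figure D1:**
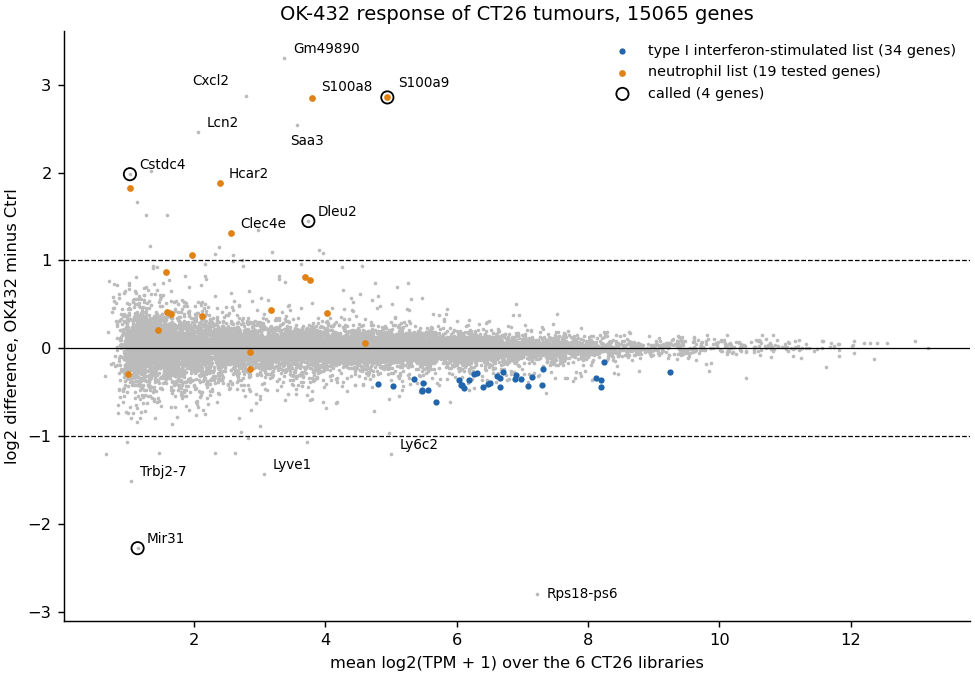
Each point is 1 of the 15065 genes tested in CT26 tumours, with the mean log2(TPM + 1) over the 6 libraries on the horizontal axis and the log2 difference, OK432 minus Ctrl, on the vertical axis; dashed lines mark 2-fold, circles the 4 called genes, orange points the neutrophil list and blue points the type I interferon-stimulated list. The cloud stays between the dashed lines apart from 37 genes, the high neutrophil genes lie above it, and all 34 interferon-stimulated genes lie below 0.

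Of the called genes, S100a9 was the most abundant. It encodes a calcium-binding protein that forms calprotectin with S100a8 and lies on chromosome 3 (mm10, chr3:90692632-90695721, minus strand). S100a9 stood at 94.4, 57.6 and 100.5 TPM in OK432 libraries, against 9.47, 9.83 and 12.2 TPM in Ctrl libraries. Each OK432 value was well above every Ctrl value, and the log2 difference was 2.86 (SE 0.212, adjusted p = 0.0126). The call rests on the set of libraries: it was kept without OK432 replicate 2 or replicate 3 and ended when any of the other 4 libraries was left out, where the log2 difference was 2.75 to 2.96 and the adjusted p reached 0.268 without Ctrl replicate 2.

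Cstdc4 encodes a cystatin of the stefin A type, a family of cysteine protease inhibitors. Cstdc4 (Gm5483 in GENCODE M21, chr16:36184212-36188111, plus strand) was at 3.33, 2.62 and 3.19 TPM in OK432 libraries, against 0, 0.0658 and 0 TPM in Ctrl libraries. The groups were far apart, and the log2 difference was 1.98 (SE 0.158, adjusted p = 0.00299). Stefin A genes are near-identical copies of each other, so how reads were split among them is uncertain. Its neighbour in kind Stfa2l1 had 3.90, 1.59 and 3.46 TPM in OK432 libraries and 0, 0 and 0.269 TPM in Ctrl libraries, a log2 difference of 1.83 that was not called (adjusted p = 0.0746). Both genes passed the filter on low values only through their OK432 libraries.

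Dleu2 is a long noncoding RNA and the host transcript of the microRNAs Mir15a and Mir16-1, on chromosome 14 (chr14:61602839-61682373, minus strand). It was at 18.5, 20.5 and 24.6 TPM in OK432 libraries, against 7.80, 6.91 and 6.61 TPM in Ctrl libraries. The groups did not overlap, the log2 difference was 1.45 (SE 0.113, adjusted p = 0.00299), and Dleu2 was called whichever of the 6 libraries was left out (1.34 to 1.54). Dleu2 also varied without OK-432: single Ctrl libraries of the other tumour types ranged from 4.86 to 18.96 TPM. The annotated gene overlaps 13 others, among them Trim13 and Kcnrg on the opposite strand, and no source names the strand setting of the counting. Trim13, a ubiquitin ligase gene, was at 11.4, 10.4 and 11.3 TPM in OK432 libraries and 10.5, 12.9 and 9.53 TPM in Ctrl libraries, and these overlap.

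The gene called lower was Mir31, the gene of a microRNA whose hairpin and mature strands are shown because they are so short that an mRNA library cannot measure the mature form. The sequences are from RefSeq (GRCm38.p6, hairpin at chr4:88910557-88910662, minus strand); capitals mark the seed, bases 2 to 8.
Mir31 hairpin: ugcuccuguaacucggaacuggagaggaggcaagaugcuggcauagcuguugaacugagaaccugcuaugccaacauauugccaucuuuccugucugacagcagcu
mmu-miR-31-5p: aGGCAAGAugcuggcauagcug
mmu-miR-31-3p: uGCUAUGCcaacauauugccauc
Mir31 was listed at 0.000243, 0.000284 and 0.000332 TPM in OK432 libraries, against 4.23, 3.41 and 3.94 TPM in Ctrl libraries. The log2 difference was −2.28 (SE 0.151, adjusted p = 0.0019). The gene is 106 bases long and lies inside an annotated long intergenic RNA on the same strand, and how the authors' estimate divided reads between the overlapping genes is not known. The values near 0 therefore cannot be read as absence of the transcript, and whether the difference is one of expression or of read assignment was not tested. It was under 0.001 TPM in every library of the other tumour types except LL2 OK432 replicate 1, at 4.71 TPM. Mir31 passed the filter only through its Ctrl libraries; with no filter on low values it and Cstdc4 were also called, and with a filter at 5 TPM neither was tested.

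**Figure D2:**
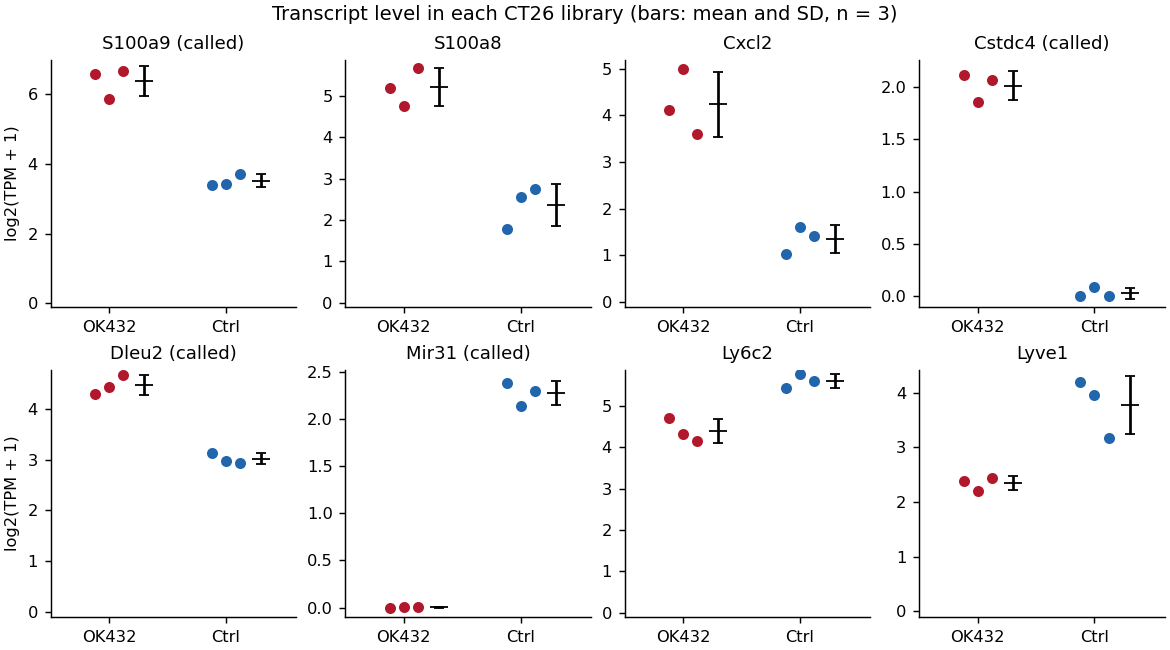
Each panel shows log2(TPM + 1) of 1 gene in the 3 OK432 libraries (red, left) and the 3 Ctrl libraries (blue, right) of CT26 tumours, with the mean and SD (n = 3) beside them. S100a9, Cstdc4, Dleu2 and Mir31 were called; S100a8, Cxcl2, Ly6c2 and Lyve1 were not, although their groups do not overlap.

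Neutrophil genes held several of the largest differences, although S100a9 was the only member called. Of 32 genes in the list 19 were tested, 16 of them with a positive log2 difference, and the median was 0.44 against −0.0001 over all genes. At an unadjusted p under 0.05, 8 were higher (2.2% of all genes tested) and none lower, and the groups did not overlap for 8, all with OK432 higher (4.75% of all genes). Summed over the list, TPM was 314, 208 and 281 in OK432 libraries against 94.4, 115 and 116 in Ctrl libraries, so every OK432 sum exceeded every Ctrl sum. S100a8 and S100a9 held a large part of the OK432 sums, with means of 37.5 and 84.2 TPM, against 4.35 and 10.5 TPM in Ctrl libraries. In the fits that left out 1 library, 7 to 10 members were higher at an unadjusted p under 0.05. Of the members named here, Stfa2l1 passed the filter only through its OK432 libraries, so these counts are a description.

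Among these genes, S100a8 had 35.9, 26.2 and 50.2 TPM in OK432 libraries and 2.47, 4.87 and 5.72 TPM in Ctrl libraries. The groups were separate by a wide margin, but the log2 difference of 2.85 was not called (adjusted p = 0.0765). Hcar2, a receptor for nicotinic acid and beta-hydroxybutyrate, had 10.2, 12.2 and 5.95 TPM in OK432 libraries and 1.33, 1.78 and 2.17 TPM in Ctrl libraries (1.88, adjusted p = 0.0659). Clec4e, the glycolipid receptor Mincle, had 9.16, 10.1 and 6.11 TPM in OK432 libraries and 2.38, 2.87 and 3.03 TPM in Ctrl libraries (1.31, adjusted p = 0.0659). Hcar2 and Clec4e were lowest in OK432 replicate 3, whereas S100a8 was highest there. The formyl peptide receptor gene Fpr1 had 4.61, 4.07 and 5.31 TPM in OK432 libraries and 0.848, 1.84 and 2.73 TPM in Ctrl libraries (1.07, adjusted p = 0.467).

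Several genes of the neutrophil list were near 0 in these tumours, and others were not. Elane and Stfa1 were listed at 0 in all 6 libraries, and Ly6g, the surface marker used to sort mouse neutrophils, had 0.515, 0 and 0.270 TPM in OK432 libraries and 0, 0 and 0.108 TPM in Ctrl libraries. In all, 10 of the 32 genes stayed under 1 TPM in every library. Retnlg, a marker of mature neutrophils, was below the filter, with 1.83, 0.607 and 2.91 TPM in OK432 libraries and 0, 0.381 and 0 TPM in Ctrl libraries, so its groups did not overlap. Of the granule protease genes, Prtn3 had 5.77, 5.80 and 6.82 TPM in OK432 libraries and 6.32, 5.16 and 7.73 TPM in Ctrl libraries (log2 difference −0.04). Ctsg had 1.21, 1.17 and 0.226 TPM in OK432 libraries and 1.61, 1.02 and 1.04 TPM in Ctrl libraries (−0.29), and for both proteases the groups overlapped. Csf3r, the receptor for granulocyte colony-stimulating factor, had 20.3, 14.8 and 18.5 TPM in OK432 libraries and 13.8, 12.8 and 12.9 TPM in Ctrl libraries, the groups not overlapping. Cxcr2, the receptor for Cxcl2, had 4.98, 1.12 and 4.13 TPM in OK432 libraries and 0.785, 1.74 and 1.17 TPM in Ctrl libraries, where OK432 replicate 2 lies within the Ctrl range (log2 difference 0.87, adjusted p = 0.972).

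The chemokines and growth factors that attract or raise neutrophils were mostly higher too, with Cxcl2 at the head. Cxcl2 had 16.3, 30.6 and 11.1 TPM in OK432 libraries, against 1.06, 2.07 and 1.65 TPM in Ctrl libraries. The groups were far apart, but the OK432 values differed among themselves by more than 2-fold, and the log2 difference of 2.88 (SE 0.34) was not called (adjusted p = 0.0746). Without OK432 replicate 2 or replicate 3 it was called, at 2.50 (adjusted p = 0.0196) and 3.19 (adjusted p = 0.0205). Of 11 genes in the list 8 were tested, 7 had a positive difference, none was called, and the median was 0.60. Summed over the list, TPM was 335, 338 and 237 in OK432 libraries and 262, 267 and 247 in Ctrl libraries. These sums overlapped, and OK432 replicate 3 had the lowest of all. At an unadjusted p under 0.05, 5 were higher in the 6-library fit, against 2.2% of all genes tested. In the fit of all 18 libraries 2 were higher, against 362 of 16816 genes.

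Other members differed less. Ccl3 had 11.7, 20.4 and 6.18 TPM in OK432 libraries and 4.12, 4.46 and 3.26 TPM in Ctrl libraries (log2 difference 1.35, adjusted p = 0.762), and Ccl4 had 16.5, 24.4 and 10.4 TPM in OK432 libraries and 9.39, 7.36 and 7.05 TPM in Ctrl libraries (0.95, adjusted p = 0.763). Ccl3, Ccl4 and Cxcl2 were all highest in OK432 replicate 2 and lowest, among the OK432 libraries, in replicate 3. Ccl3 and Ccl4 are also in a list of CC chemokines, where they were the only members with a positive difference. Of its 13 tested genes 11 had a negative difference, and the median was −0.16. Cxcl3 had 30.6, 22.2 and 22.1 TPM in OK432 libraries and 19.95, 13.8 and 17.5 TPM in Ctrl libraries (0.52, adjusted p = 0.786). For Cxcl5 (0.67) and Cxcl1 (0.35) the groups overlapped. Csf3, which encodes granulocyte colony-stimulating factor, was below the filter, at 0.444, 0.780 and 0.282 TPM in OK432 libraries and 0.164, 0.226 and 0.194 TPM in Ctrl libraries.

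The region just before the Cxcl2 start site is shown because it carries the sequence type that NF-kappaB binds. The 150 bases before the RefSeq start site are given (GRCm38.p6, chr5:90903749-90903898, plus strand), and capitals mark matches on either strand to GGG, any 2 bases, then TTTCC.
Cxcl2 promoter: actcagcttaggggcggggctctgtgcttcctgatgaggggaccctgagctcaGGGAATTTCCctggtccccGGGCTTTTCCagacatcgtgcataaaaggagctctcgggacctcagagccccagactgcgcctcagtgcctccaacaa
This letter pattern occurs at 2 places between bases −97 and −69. Searched over 250 bases before to 50 after the start, it was found in 4 of 8 genes of the chemoattractant list with a RefSeq promoter entry (50%), in 0 of 29 neutrophil genes and in 1.89% of 27025 genes. The pattern was also found in 2 of 8 CC chemokine genes (25%), 2 of 10 keratinocyte genes (20%) and 3 of 19 sensing and feedback genes (15.8%). None of these further lists had a positive median log2 difference. The patterns were chosen with the results known, and a match is only a match of letters.

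Cytokines and acute phase proteins were mixed. Of 12 tested proinflammatory cytokines none was called, and the median log2 difference was 0.01. At an unadjusted p under 0.05, 3 were higher and 1 lower, against 2.2% and 2.95% of all genes tested. The 3 were of the interleukin-1 family. Il1f9, now named Il36g, had 4.01, 2.35 and 3.02 TPM in OK432 libraries and 0.495, 0.670 and 0.156 TPM in Ctrl libraries (1.52, adjusted p = 0.0745), and Il1a had 3.10, 2.77 and 2.42 TPM in OK432 libraries and 0.755, 0.870 and 0.435 TPM in Ctrl libraries (1.16, adjusted p = 0.0746). Both passed the filter only through their OK432 libraries. Il1b had 52.8, 48.8 and 29.7 TPM in OK432 libraries and 21.9, 27.7 and 28.7 TPM in Ctrl libraries, and OK432 replicate 3 lay just above the Ctrl range (0.69, adjusted p = 0.856). Il18, a further member of the family, had a difference of −0.23 (adjusted p = 0.926).

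Cytokines often used to read macrophage activation differed little or were lower. Tnf had 13.9, 12.5 and 9.27 TPM in OK432 libraries and 10.01, 10.3 and 11.1 TPM in Ctrl libraries, overlapping groups with a log2 difference of 0.15 (95% interval −0.15 to 0.46). Il6 had a difference of 0.03 (−0.32 to 0.39), but it lay close to the filter on low values. It was not tested without Ctrl replicate 1, Ctrl replicate 2 or OK432 replicate 1, nor with a filter at 5 TPM. Il12b, which encodes a subunit of interleukin-12 and interleukin-23, had 1.12, 1.08 and 0.500 TPM in OK432 libraries and 1.43, 1.26 and 1.85 TPM in Ctrl libraries. Its groups did not overlap, with OK432 lower, and the log2 difference was −0.41 (−0.85 to 0.02, adjusted p = 0.973). Ifng was below the filter, at 1.38, 0.806 and 0.455 TPM in OK432 libraries and 0.327, 0.696 and 1.74 TPM in Ctrl libraries.

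Among 10 tested acute phase and antimicrobial genes, none was called, and the median was 0.14. At an unadjusted p under 0.05, 4 were higher and 1 lower, against 2.2% and 2.95% of all genes tested. The lower gene was Chil3, which passed the filter only through its Ctrl libraries. The median was 0.22 without Ctrl replicate 1 and 0.25 without Ctrl replicate 3. Saa3, a serum amyloid A made by inflamed tissue, had 52.3, 16.6 and 24.3 TPM in OK432 libraries and 8.18, 3.26 and 2.08 TPM in Ctrl libraries (log2 difference 2.54, SE 0.597, adjusted p = 0.73). Lcn2, an iron-siderophore-binding protein, had 11.1, 5.51 and 10.8 TPM in OK432 libraries and 0.33, 2.42 and 0.238 TPM in Ctrl libraries (2.46, adjusted p = 0.405). Without Ctrl replicate 2, which held most of the control transcript, Lcn2 was called (2.93, adjusted p = 0.0296). Hp, which encodes haptoglobin, had 10.6, 6.33 and 8.87 TPM in OK432 libraries and 4.20, 2.86 and 4.17 TPM in Ctrl libraries (1.01, adjusted p = 0.301).

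Sensing and feedback genes of the bacterial response were at much the same level with and without OK-432. All 25 genes of the list were tested and none was called; their log2 differences ran from −0.27 to 0.16, with a median of −0.04. Tlr2, the receptor for bacterial lipoproteins, had 24.4, 29.7 and 25.97 TPM in OK432 libraries and 26.5, 26.6 and 26.2 TPM in Ctrl libraries (0.01, 95% interval −0.17 to 0.19). Cd14, a coreceptor for bacterial products, had 74.5, 77.3 and 78.0 TPM in OK432 libraries and 69.7, 68.1 and 71.6 TPM in Ctrl libraries, where the groups did not overlap (0.13, adjusted p = 0.901). Nfkbia, which encodes the inhibitor IkappaB-alpha, had a difference of 0.16 (−0.01 to 0.33), and Tlr9, the receptor for unmethylated DNA, one of −0.27 (adjusted p = 0.856).

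Among genes outside these lists that differed by at least 2-fold with groups that did not overlap, 3 more are given here, picked after their values were seen. Chil1, a chitinase-like protein, had 3.62, 2.02 and 3.19 TPM in OK432 libraries and 0.0457, 0.19 and 0.461 TPM in Ctrl libraries (1.67, adjusted p = 0.0659), and G0s2, an inhibitor of fat lipolysis, had 4.05, 7.16 and 2.22 TPM in OK432 libraries and 0.0902, 0.388 and 0.316 TPM in Ctrl libraries (2.02, adjusted p = 0.118). Trbj2-7, a joining segment of the T cell receptor beta locus, had 0.269, 0.404 and 0 TPM in OK432 libraries and 2.91, 1.86 and 2.69 TPM in Ctrl libraries (−1.51, adjusted p = 0.0659). Chil1 and G0s2 were tested through their OK432 values, and Trbj2-7 through its Ctrl values.

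Genes of the suppressive myeloid and checkpoint list lay on both sides of 0. Of 17 tested, none was called, and the median was 0.01. At an unadjusted p under 0.05, 3 were higher and 1 lower, against 2.2% and 2.95% of all genes tested. Nos2, the inducible nitric oxide synthase, had 15.6, 13.7 and 8.13 TPM in OK432 libraries and 7.18, 6.47 and 5.51 TPM in Ctrl libraries (0.82, adjusted p = 0.66). Arg1, which degrades arginine, had 75.1, 45.9 and 43.5 TPM in OK432 libraries and 32.8, 32.2 and 42.5 TPM in Ctrl libraries (0.57, adjusted p = 0.954), and Arg2 differed by 0.39 (adjusted p = 0.824). In these 3 genes the groups did not overlap, although OK432 replicate 3 and Ctrl replicate 3 were close for Arg1. Lgals9, the galectin-9 gene, differed by −0.25 (adjusted p = 0.62), and Cd274, which encodes PD-L1, by −0.07 (95% interval −0.37 to 0.22).

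Type I interferon-stimulated genes were lower in OK432 libraries by a small amount, in every member measured. All 34 genes of the list were tested and all 34 had a negative log2 difference, from −0.61 to −0.16, with a median of −0.38 against −0.0001 over all genes. None was called. At an unadjusted p under 0.05 there were 32, against 2.95% lower among all genes tested. The exceptions were Irf7 (−0.36, 95% interval −0.74 to 0.02) and Ifi27l2a (−0.16, −0.45 to 0.13). These genes answer to the same signal and were measured in the same 6 libraries, so they are not 34 separate observations, and the earlier results of these data had shown the direction before the list was taken up here.

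The 3 genes below had groups that did not overlap. Usp18, which removes the ubiquitin-like protein Isg15 and damps the interferon receptor, had 111, 132 and 106 TPM in OK432 libraries and 165, 163 and 142 TPM in Ctrl libraries (log2 difference −0.42, adjusted p = 0.456). Dhx58, which encodes the RNA sensor LGP2, had 40.7, 41.2 and 36.0 TPM in OK432 libraries and 56.2, 59.4 and 49.4 TPM in Ctrl libraries (−0.47, adjusted p = 0.229). Oas3, an oligoadenylate synthetase that activates RNase L, had 41.9, 47.7 and 33.8 TPM in OK432 libraries and 67.9, 71.9 and 50.4 TPM in Ctrl libraries (−0.61, adjusted p = 0.715). In these genes OK432 replicate 3 was lowest of the treated libraries and Ctrl replicate 3 lowest of the controls. Isg15 itself had 249, 299 and 210 TPM in OK432 libraries and 353, 391 and 286 TPM in Ctrl libraries, where OK432 replicate 2 lay above Ctrl replicate 3 (−0.44).

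Library by library, the list was graded rather than split. Each gene's log2(TPM + 1) was set against its own mean over the 6 libraries, and the median of the 34 values was −0.19, −0.07 and −0.32 in OK432 libraries and 0.20, 0.37 and −0.01 in Ctrl libraries. OK432 replicate 2 and Ctrl replicate 3 are thus next to each other, and for 23 of the 34 genes the groups did not overlap, with OK432 lower (5.22% of all genes). Leaving out 1 library at a time gave medians of the differences from −0.48, without Ctrl replicate 3, to −0.28, without Ctrl replicate 2, and all 34 stayed negative. The number at an unadjusted p under 0.05 was 21 without Ctrl replicate 2, 22 without OK432 replicate 3 and 1 in the fit of all 18 libraries, where the spread of the other tumours enters.

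**Figure D3:**
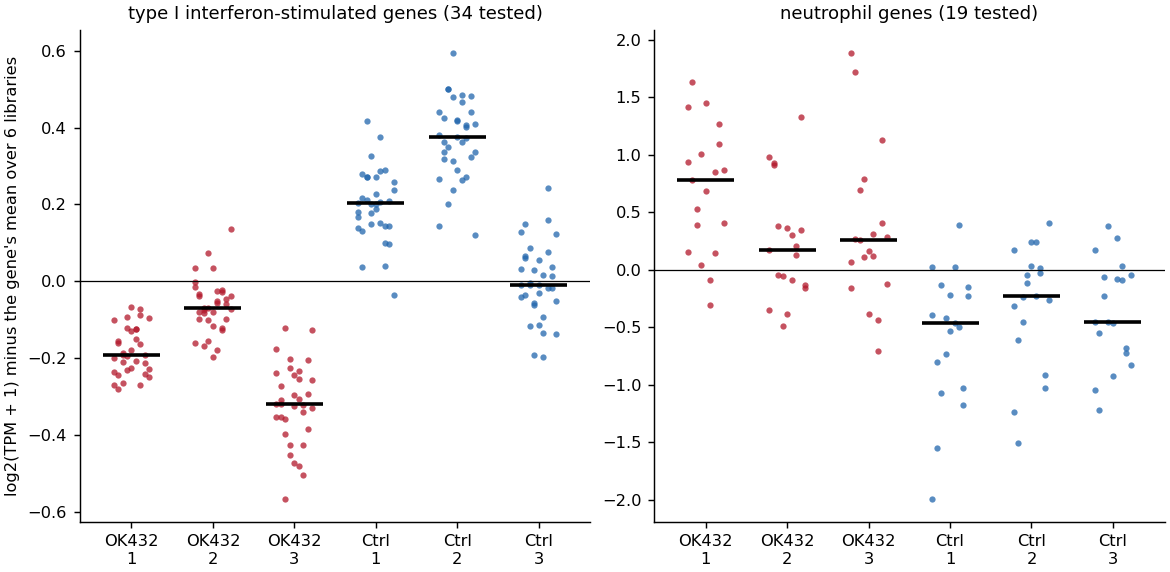
Points are the members of the type I interferon-stimulated list (left, 34 genes) and of the neutrophil list (right, 19 tested genes) in each CT26 library, as log2(TPM + 1) minus the gene's mean over the 6 libraries; OK432 is red, Ctrl is blue, and bars are medians. The interferon medians are −0.19, −0.07 and −0.32 in OK432 libraries and 0.20, 0.37 and −0.01 in Ctrl libraries, and the neutrophil medians are 0.78, 0.17 and 0.26 in OK432 libraries and −0.46, −0.23 and −0.45 in Ctrl libraries.

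The regions before the start sites of Isg15 and Oas3 are shown because they carry the letter pattern of the interferon-stimulated response element, bound by a complex that holds Stat2 and Irf9. The 150 bases before each RefSeq start site are given (GRCm38.p6, minus strand, chr4:156200819-156200968 for Isg15 and chr5:120777660-120777809 for Oas3), and capitals mark matches on either strand to GAAA, any 2 bases, then GAAA.
Isg15 promoter: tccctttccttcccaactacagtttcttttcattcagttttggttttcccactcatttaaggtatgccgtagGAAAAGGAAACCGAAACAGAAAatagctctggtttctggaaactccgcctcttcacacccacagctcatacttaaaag
Oas3 promoter: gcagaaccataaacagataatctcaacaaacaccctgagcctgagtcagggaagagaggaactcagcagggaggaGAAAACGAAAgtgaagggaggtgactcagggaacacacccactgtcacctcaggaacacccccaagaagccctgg
Isg15 has 3 overlapping matches between bases −78 and −57, and Oas3 has 1 from −75 to −66. Searched over the whole 300-base windows, the pattern was found in 15 of the 24 type I list genes with an entry (62.5%), in 11 of 19 interferon-gamma-induced genes (57.9%), in 0 of 8 chemoattractant genes and in 3.99% of 27025 genes.

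Genes induced by interferon gamma also tended to be lower, by less. Of 27 tested, 26 had a negative log2 difference, none was called, and the median was −0.22. At an unadjusted p under 0.05, 7 were lower, against 2.95% of all genes tested. Gbp3, a guanylate-binding protein that attacks the vacuoles of pathogens, had 206, 221 and 171 TPM in OK432 libraries and 234, 273 and 245 TPM in Ctrl libraries (−0.33, adjusted p = 0.728). Cxcl10, a T cell chemokine, had 220, 216 and 146 TPM in OK432 libraries and 221, 297 and 230 TPM in Ctrl libraries; Ctrl replicate 1 lay just above the OK432 range (−0.37, adjusted p = 0.988). Cxcl9, a chemokine of the same receptor, had 83.4, 74.5 and 41.5 TPM in OK432 libraries and 47.1, 78.8 and 108 TPM in Ctrl libraries, which overlap (−0.21). The count of 7 was set by single libraries: it was 16 without Ctrl replicate 1, 3 without Ctrl replicate 2, 3 without Ctrl replicate 3 and 4 without OK432 replicate 3.

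MHC class II genes varied more between libraries than between groups. Of 9 tested, none had an unadjusted p under 0.05 and none had groups that did not overlap. H2-Eb1, a beta chain of the class II molecule, had 111, 121 and 68.5 TPM in OK432 libraries and 65.7, 98.2 and 210 TPM in Ctrl libraries, so Ctrl replicate 3 held the highest value and OK432 replicate 3 was near the lowest. The median difference of the list was −0.15; it was 0.26 without Ctrl replicate 3 and −0.43 without Ctrl replicate 1.

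Inflammatory monocyte genes were mostly lower. Of 10 tested, 9 had a negative log2 difference, none was called, and the median was −0.30. At an unadjusted p under 0.05, 5 were lower, against 2.95% of all genes tested. Ly6c2, part of the Ly6C antigen of circulating monocytes, had 25.2, 18.96 and 16.8 TPM in OK432 libraries, against 42.0, 53.8 and 47.8 TPM in Ctrl libraries. The groups were well apart, and the log2 difference of −1.21 (SE 0.147) was not called (adjusted p = 0.0659); it was called without OK432 replicate 1 (−1.37, adjusted p = 0.00585). Its close paralogue Ly6c1 had 57.2, 47.1 and 38.3 TPM in OK432 libraries and 67.5, 80.4 and 70.1 TPM in Ctrl libraries (−0.62, adjusted p = 0.503), and reads of these similar genes may be split between them. Chil3, a chitinase-like protein of myeloid cells, had 0.633, 0.705 and 0.350 TPM in OK432 libraries and 1.76, 1.82 and 1.53 TPM in Ctrl libraries (−0.80, adjusted p = 0.437). Chil3 passed the filter only through its Ctrl libraries and is 1 of the 5, so the count is a description. The count was 2 without Ctrl replicate 1, 2 without Ctrl replicate 2 and 3 without OK432 replicate 3.

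Macrophage genes were centred near 0, with a median of −0.01 over 17 tested genes. At an unadjusted p under 0.05, 4 were lower, against 2.95% of all genes tested. Lyve1, a hyaluronan receptor of perivascular macrophages and lymphatic endothelium, had 4.23, 3.59 and 4.43 TPM in OK432 libraries, against 17.3, 14.5 and 8.07 TPM in Ctrl libraries. Ctrl replicate 3 was the lowest control, and without it Lyve1 was called (−1.73, adjusted p = 0.0122); with it the log2 difference was −1.43 (SE 0.24, adjusted p = 0.245). Adgre1, which encodes the macrophage marker F4/80, had 83.8, 94.7 and 86.5 TPM in OK432 libraries and 96.7, 101.5 and 95.5 TPM in Ctrl libraries (−0.15, adjusted p = 0.953).

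Lists of dendritic cells, T cells and natural killer cells had negative medians and no called gene. The medians were −0.19 for 7 conventional and −0.19 for 11 mature dendritic cell genes, −0.27 for 5 plasmacytoid dendritic cell genes, −0.21 for 15 T cell genes, −0.26 for 7 regulatory T cell genes and −0.25 for 11 natural killer cell genes. Single libraries moved these values: with 1 library left out the medians ran from −0.34 to −0.08 for mature dendritic cells, −0.37 to −0.07 for T cells, −0.43 to −0.09 for regulatory T cells and −0.40 to −0.16 for natural killer cells. The largest of each was without Ctrl replicate 1. The smallest was without Ctrl replicate 3 for T and natural killer cells and without OK432 replicate 3 for mature dendritic and regulatory T cells. The plasmacytoid median is the value of Bst2, which is also in the type I interferon-stimulated list. For 6 tested B and plasma cell genes the median was −0.01, with 3 positive and 3 negative differences. T cell genes lower at an unadjusted p under 0.05 numbered 3, against 2.95% of all genes tested. They numbered 7 without Ctrl replicate 1 and 0 without Ctrl replicate 2, Ctrl replicate 3 or OK432 replicate 3. The costimulatory gene Cd86 had 7.99, 11.0 and 7.49 TPM in OK432 libraries and 11.1, 11.7 and 13.01 TPM in Ctrl libraries (−0.41, adjusted p = 0.824). Eomes, a transcription factor of natural killer and memory T cells, had 1.87, 1.85 and 1.79 TPM in OK432 libraries and 2.75, 2.88 and 2.62 TPM in Ctrl libraries (−0.40, adjusted p = 0.782). T cell genes were low in all libraries: Cd8a was below the filter, at 0.911, 0.528 and 0.520 TPM in OK432 libraries and 0.426, 0.811 and 1.27 TPM in Ctrl libraries. Gzmb, the cytotoxic granzyme B gene, had 32.6, 37.0 and 32.6 TPM in OK432 libraries and 36.1, 55.9 and 36.3 TPM in Ctrl libraries (−0.29, 95% interval −0.67 to 0.09). In the cytotoxic effector list that holds Gzmb, 10 genes were tested, 4 with a positive and 6 with a negative difference (median −0.13). None was called. At an unadjusted p under 0.05, 1 was higher and 1 lower, against 2.2% and 2.95% of all genes tested. Within this list Gzmc differed by 0.57 (adjusted p = 0.762) and Nkg7 by −0.35 (adjusted p = 0.856).

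The remaining genes of the 12 largest differences in each direction were higher for Dbp, a clock-controlled transcription factor (1.12, adjusted p = 0.938), and U90926 (1.08, adjusted p = 0.659). They were lower for the T cell receptor joining segments Trbj1-4 (−1.19) and Trbj1-2 (−0.63), the interferon-inducible genes Ifit1bl1 (−0.71), Ifi205 (−0.61) and Ifi214 (−0.57), the natural killer receptor gene Klra3 (−0.62), the processed pseudogene Gm14303 (−0.58) and Has1, a hyaluronan synthase (−0.55). Their adjusted p values ran from 0.229 to 0.824 for the genes that were lower. Joining segments are short exons, so their TPM rests on few positions.

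Lists of tumour cell, stromal and stress genes had small medians. Proliferation genes had a median of −0.00 over 24 genes, from −0.09 to 0.12, hypoxia and glycolysis genes −0.03 over 20, fibroblast and matrix genes 0.03 over 17, and endothelial genes −0.12 over 13. None of these lists had a called member. The hypoxia median depended on single libraries: it was −0.19 without Ctrl replicate 2 and 0.08 without Ctrl replicate 3. Without Ctrl replicate 2, 8 hypoxia and glycolysis genes were lower at an unadjusted p under 0.05, against 413 of 14906 genes tested. The fibroblast median was −0.11 without Ctrl replicate 3 and 0.13 without OK432 replicate 3. The endothelial median was −0.22 without OK432 replicate 1 and −0.02 without OK432 replicate 2. Hmox1, a haem oxygenase of stressed cells and macrophages, had 163, 122 and 135 TPM in OK432 libraries and 119, 104 and 98.6 TPM in Ctrl libraries (0.37, adjusted p = 0.762). Jun, an immediate early transcription factor, had 66.5, 67.1 and 65.6 TPM in OK432 libraries and 82.1, 78.7 and 75.2 TPM in Ctrl libraries (−0.24, adjusted p = 0.467).

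Transcripts of neighbouring tissue and blood differed between single libraries. The skeletal muscle list summed to 409, 219 and 190 TPM in OK432 libraries and 184, 165 and 187 TPM in Ctrl libraries, and its median log2 difference of 0.95 over 7 tested genes was 0.21 without OK432 replicate 1. Haemoglobin and other erythroid genes summed to 140, 283 and 748 TPM in OK432 libraries and 192, 169 and 347 TPM in Ctrl libraries. The median of the erythroid list was 0.44, and −0.14 without OK432 replicate 3. The neutrophil list without these libraries stood at 0.30 without OK432 replicate 1 and 0.72 without OK432 replicate 3, and the interferon list at −0.39 and −0.30.

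**Figure D4:**
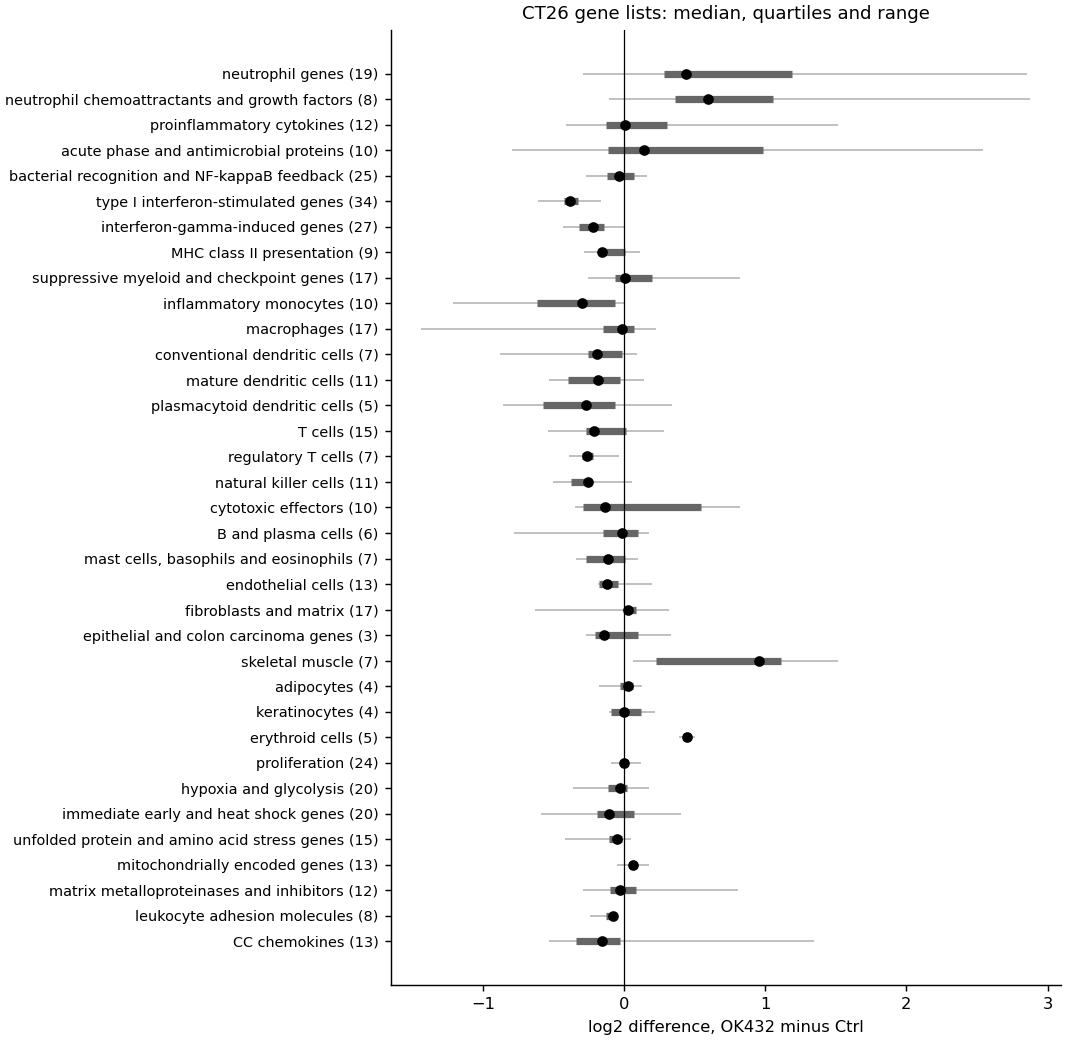
For each gene list (number of tested genes in brackets) the point is the median log2 difference, OK432 minus Ctrl, in CT26 tumours, the thick bar the middle quartiles and the thin line the range of the tested members. The neutrophil and chemoattractant lists have the members furthest right, and the skeletal muscle list has the largest median (0.95). Type I interferon-stimulated, regulatory T cell and leukocyte adhesion genes lie wholly left of 0, and the proliferation genes run from −0.09 to 0.12.

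How the CT26 response differed from that of the other tumours was tested gene by gene as the difference of 2 effects, in 1 fit of all 18 libraries and 16816 genes. Against CT26NYESO1 no gene was called (0%), with 1486 at an unadjusted p under 0.05 and a smallest adjusted p of 0.0553, for the crystallin lambda gene Cryl1. Against LL2, 1 gene was called (0.00595%), with 823 at an unadjusted p under 0.05. The called gene was Eif3j2, a gene copy of a translation initiation factor subunit, whose log2 difference in CT26 was −0.09 and which was listed at 0 in the LL2 OK432 libraries.

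The effects on 5 genes are given side by side, of which S100a9, Cxcl3 and Il1b had their smallest estimate in CT26. The log2 difference of S100a9 was 2.86 in CT26, 6.04 in CT26NYESO1 and 3.16 in LL2, and the CT26 effect less the CT26NYESO1 effect was −3.19 (95% interval −5.12 to −1.25, adjusted p = 0.439). That of S100a8 was 2.85 in CT26, 4.62 in CT26NYESO1 and 2.71 in LL2, and that of Cxcl2 was 2.88, 4.03 and 2.35 in the same order. Cxcl3 gave 0.52 in CT26, 3.87 in CT26NYESO1 and 2.53 in LL2, a CT26 effect less the CT26NYESO1 effect of −3.35 (−5.21 to −1.49, adjusted p = 0.439). Il1b gave 0.69 in CT26, 2.90 in CT26NYESO1 and 1.12 in LL2, with a difference from CT26NYESO1 of −2.20 (−3.51 to −0.90, adjusted p = 0.439). None of these differences passed the threshold after adjustment, which does not show that the tumours responded alike.

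The levels behind the S100a9 effects were 57.6 to 100.5 TPM in OK432 libraries against 9.47 to 12.2 TPM in Ctrl libraries of CT26. They were 452, 42.9 and 320 TPM in OK432 libraries against 1.72 to 1.95 TPM in Ctrl libraries of CT26NYESO1. In LL2 they were 73.5 to 130 TPM in OK432 libraries against 7.15 to 13.6 TPM in Ctrl libraries. The ranges of the OK432 libraries thus overlapped between CT26 and LL2. In CT26NYESO1, OK432 replicate 2 lay below every CT26 OK432 library, and replicates 1 and 3 lay above them all. The interferon-stimulated gene Isg15 differed by −0.44 in CT26, −0.14 in CT26NYESO1 and −1.20 in LL2, and the CT26 effect lay between them.

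**Figure D5:**
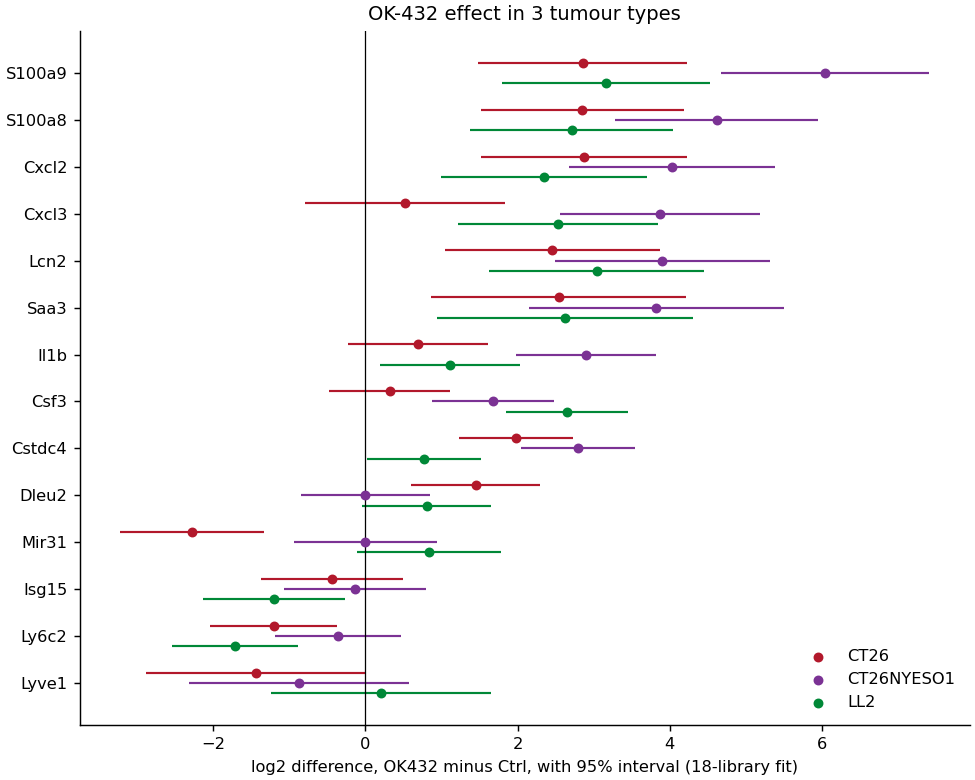
Points are log2 differences, OK432 minus Ctrl, with 95% intervals from the fit of all 18 libraries, for CT26 (red), CT26NYESO1 (purple) and LL2 (green). In CT26, S100a9, S100a8 and Cxcl2 lie between 2.85 and 2.88, and Cxcl3 and Il1b lie at 0.52 and 0.69. The CT26 points of S100a9, Cxcl3 and Il1b lie below those of both other tumours.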

How the data were processed

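Bulk RNA sequencing libraries came from total RNA, and the labels' protocols name a kit for stranded mRNA. The authors deposited TPM values for 55291 genes in 18 libraries. Tools in the submitters' processing notes are StringTie 2.1.2, STAR 2.7.3a and Trim Galore 0.6.5, with the build mm10; no source used here gives the annotation, filters or strand setting. Because TPM is a share, abundant genes that change shift the values of all others, and depth is unknown. Values of the 6 CT26 libraries, grouped by their labels, were analysed as log2(TPM + 1) with limma 3.58.1 in R 4.3.3 (trended and robust empirical Bayes, 2-sided, 4 residual degrees of freedom), and effects were compared between tumour types in 1 fit of all 18 libraries (12 residual degrees of freedom). Every adjusted p is limma's, with Benjamini-Hochberg adjustment over all genes tested, and the fit was tested on simulated data.

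The members, the 35 gene lists and the sequence patterns were chosen with earlier results of these data known. Genes named are those called, the 12 largest differences each way with an unadjusted p under 0.05, groups that do not overlap and at least 5 TPM on average in the higher group, up to 4 members of a list by smallest p, and a panel of 25 immune genes; genes outside this rule, chosen after their values were seen, are Rps18-ps6, Gm49890, Trim13, Kcnrg, Fpr1, Elane, Stfa1, Retnlg, Prtn3, Ctsg, Csf3r, Chil1, G0s2, Trbj2-7, Irf7, Ifi27l2a, Isg15, Cryl1 and Eif3j2. GENCODE M21 gave positions and held 53292 of the table's symbols. Alternatives were the pseudocount (0.1), the filter (5 TPM or none), 2 rescalings, the shrinkage, all 18 libraries, the replicate number as a block, and each library left out.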

Additional observations from a re-analysis of the deposited data

Results flagged for a closer look

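The effect of OK-432 on Eif3j2, which encodes a subunit of a translation initiation factor, differed between tumour types: the CT26 effect less the LL2 effect was 3.78 on the log2 scale (SE 0.0894, adjusted p = 7.13e-14, limma, all 18 libraries). Eif3j2 was at 51.3, 48.0 and 47.9 TPM in CT26 OK432 libraries and 51.5, 53.5 and 51.5 TPM in CT26 Ctrl libraries. In LL2 it was listed at 0 in all 3 OK432 libraries, against 13.9, 13.9 and 13.04 TPM in the Ctrl libraries. Eif3j1, almost identical to it, had 53.0, 50.2 and 54.5 TPM in LL2 OK432 libraries and 49.6, 51.1 and 49.8 TPM in LL2 Ctrl libraries, so how reads were split between the copies is uncertain. Groups of 3 libraries were too small to be searched for single deviating libraries.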

How the results depend on the processing

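In CT26, 3 genes were called higher and 1 lower. Higher and lower calls were 0 and 0 with the spread shared over all 18 libraries (362 and 327 genes at an unadjusted p under 0.05, smallest adjusted p 0.377), 2 and 0 with a filter at 5 TPM, 3 and 2 with neither trended nor robust shrinkage, and 6 and 2 with the replicate block. No label says what a replicate number marks, and deviations of same-numbered libraries correlated at −0.02, −0.05 and 0.06. Whether same-numbered libraries share an animal or a day was not tested. The block added Saa3, Cxcl2, U90926 and Oas3, and it left the differences between tumour types at 0 and 1 calls. Leaving out 1 library gave 1 to 5 higher and 0 to 2 lower calls; Gm49890 was called without Ctrl replicate 2 (5.02). Pseudocount 0.1, no filter, median-of-ratios rescaling and quantile normalization kept all 4 calls.

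The CT26 effect less the CT26NYESO1 effect had no call, 2 with pseudocount 0.1, 1 with a filter at 5 TPM, 6 with no filter and 1 with either rescaling. Leaving out 1 library gave 0 to 99, the 99 without CT26NYESO1 OK432 replicate 2 (5 without its replicate 1). Against LL2 there was 1 call, 16 with no filter and 1 to 2 with 1 library left out. The causes were not tested.

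Of 106 genes followed through the alternatives, 8 changed direction, each when 1 library was left out: Cxcl9 (−0.529 to 0.0929), Cd274 (−0.186 to 0.0388), Tlr2 (−0.0684 to 0.0688), Ccl2 (−0.485 to 0.0689), H2-DMb1 (−0.43 to 0.21), H2-Eb1 (−0.56 to 0.28), Hbb-bs (−0.14 to 1.08) and Rps18-ps6 (−4.31 to 0.12). Depth is unknown, so what it limits cannot be stated; with 3 libraries a group the median standard error was 0.171 for genes under 5 TPM.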
